A study of Homo sapiens with 4 samples.

Results

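Interferon-stimulated effector genes are the genes whose protein products carry out the antiviral and growth-limiting work of interferon, and 46 of them were followed here in MDA-MB-231, a human cell line established from a triple-negative breast cancer. They were taken by symbol from a list of effectors of the type I and type III interferon response, and all 46 were found among the 20263 genes of the deposited count table. The cells had been kept for 24 h with RB-BC or with DMSO, the solvent control, and RNA was sequenced from 2 libraries per group, named RB-BC 1, RB-BC 2, DMSO 1 and DMSO 2. The series title describes RB-BC as a derivative of ribociclib, an inhibitor of the cell cycle kinases CDK4 and CDK6. In the treatment protocol the compound appears as Rib_CA, and the sources used here state neither that this is RB-BC nor the dose. Both groups are the same line in the same medium, and no other line was compared here. The labels do not say that the 2 libraries of a group came from separate cultures, so the p-values rest on the spread between 2 libraries per group, and that spread may be technical.

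Cells make interferon after sensors in the cytoplasm or in endosomes bind foreign or displaced nucleic acid. Secreted interferon binds its receptor on the same or a neighbouring cell, JAK kinases phosphorylate STAT factors, and these act with IRF9 in a complex that binds the interferon-stimulated response element (ISRE) in the promoters of the effector genes. Interferon regulatory factors activated directly by the sensors can bind the same element, and interferon gamma acts mainly through a different one, the gamma-activated site (GAS). In tumour cells the same programme is known to follow DNA damage, release of DNA into the cytoplasm, transcription of endogenous repeats and CDK4 and CDK6 inhibition.

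The libraries held 42786422 and 42752387 counts in RB-BC 1 and RB-BC 2, and 34774542 and 37754168 counts in DMSO 1 and DMSO 2. Mitochondrially encoded genes took 10.1% and 10.3% of the counts in the RB-BC libraries, against 8.68% in DMSO 1 and 21.7% in DMSO 2. Levels are given as CPM, counts relative to library size, with the sizes scaled by the trimmed mean of M values (TMM). With 0.5 CPM added to each value, effector genes differed by a median of 0.11 (log2) between RB-BC libraries and 0.28 between DMSO libraries. DMSO was thus the less even pair. Genes expected in the line were abundant. Summed counts over VIM, CD44, CAV1, AXL, MSN and KRT18 were 436575 and 476093 in the RB-BC libraries and 315116 and 351007 in the DMSO libraries. VIM alone had 226660 and 239563 counts in RB-BC and 124373 and 139013 in DMSO. In CPM, VIM was higher in both RB-BC libraries, CAV1, AXL and KRT18 were lower, and CD44 and MSN overlapped. CDH1, the epithelial cadherin that the line is known to lack, had 1 and 0 counts in RB-BC and 2 and 0 in DMSO. Other luminal genes were detected, with 378 and 346 counts of GATA3 in RB-BC and 338 and 716 in DMSO, and 345 and 330 counts of FOXA1 in RB-BC and 255 and 240 in DMSO. Summed counts over 7 leukocyte genes were 70 and 71 in RB-BC and 42 and 36 in DMSO, most of them from PTPRC (46 and 48 in RB-BC, 22 and 13 in DMSO) and CD14 (19 and 23 in RB-BC, 18 and 17 in DMSO), while the T cell gene CD3E and the plasmacytoid dendritic cell genes CLEC4C and LILRA4 had no count in any library. Summed counts over 3 endothelial genes were 94 and 98 in RB-BC and 51 and 29 in DMSO. The part of these low counts in the results was not tested. Since these are bulk RNA samples, a change in the share of cells that express a gene and a change in RNA per cell cannot be told apart.

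Of the 46 effector genes, 16 rose with RB-BC and 1 fell, while 28 did not pass the test and CMPK2 could not be tested because it had no count in any library. By role, those that rose included 3 of 4 IFIT proteins, 3 of 4 OAS enzymes, 3 of 5 genes of the ISG15 system, 3 of 5 RNA helicases and RNA-binding proteins, and the RNA exonuclease ISG20. None of the 4 membrane restriction factors and none of the 3 genes of the PARP and DTX3L group passed. Over all tested genes 8.58% rose and 7.53% fell, so 0 calls among 4 or 3 genes is near the background. The rises ran from a log2 fold change of 0.64 for IFI44 to 2.78 for ISG20, and 12 of the 16 were at least 2-fold.

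The test was edgeR's quasi-likelihood test with Benjamini-Hochberg adjustment over the 13744 genes that had enough counts, at a threshold of 0.05, and each log2 fold change, RB-BC over DMSO, has its standard error after it (SE, n = 2 libraries per group). By that rule 8.58% of all tested genes were higher in RB-BC and 7.53% were lower, and among the 45 tested effector genes the share that rose was 35.6%. Over all tested genes 1179 rose and 1035 fell, and with library totals in place of TMM 790 rose and 415 fell. The median log2 fold change was 0.52 over the 45 tested effector genes and -0.00 over all tested genes. The effector genes were chosen with earlier results of these data known, so neither contrast is independent support. The effector median was 0.33 without DMSO 1, 0.75 without DMSO 2, 0.39 without RB-BC 1 and 0.53 without RB-BC 2. Between the DMSO libraries, the effector genes were higher in DMSO 2 by a median of 0.20 (log2, with 0.5 CPM added to each value). Both RB-BC libraries lay above both DMSO libraries for 29 of the 45, against a background of 33.1% of all tested genes, and below them for 6, against a background of 32.1%. The other 10 overlapped.

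**Figure D1:**
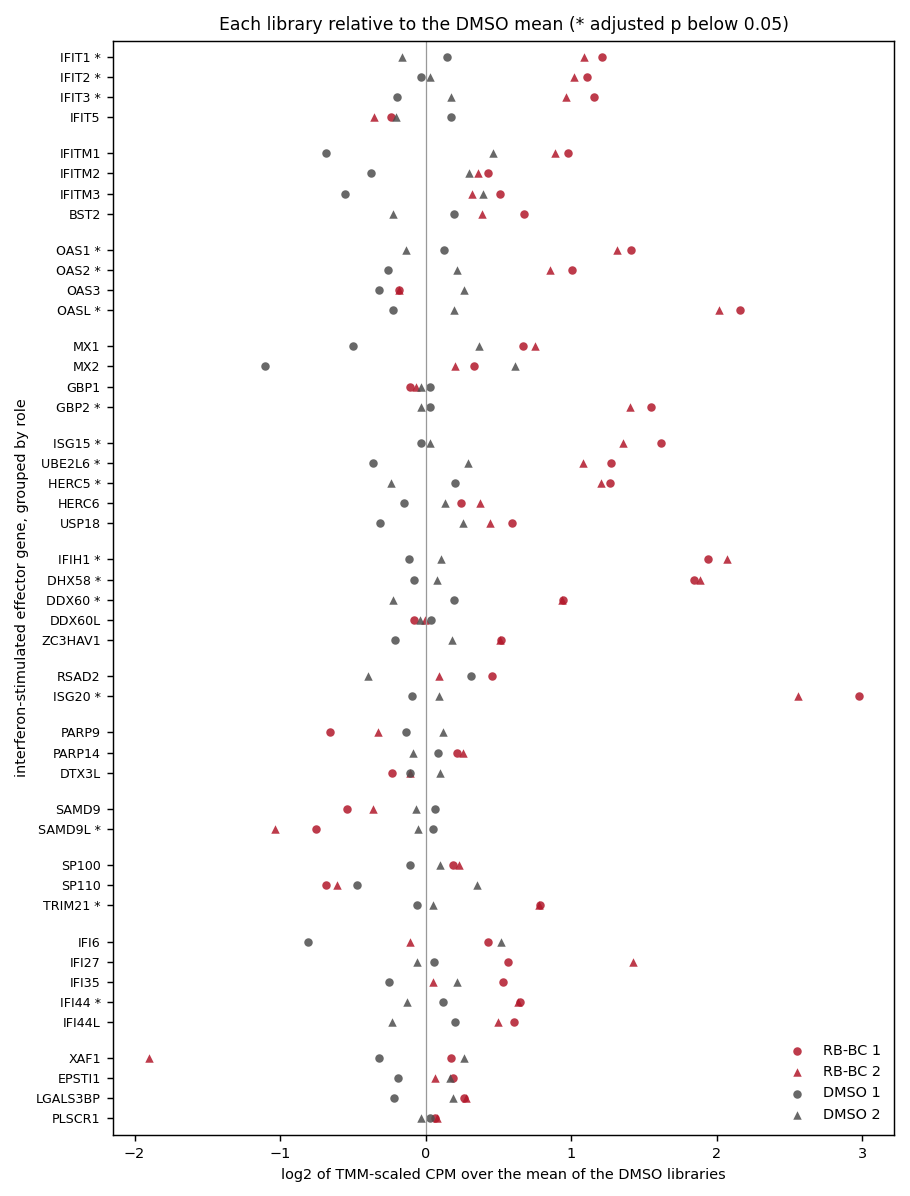
The horizontal axis gives the log2 of TMM-scaled CPM in each library over the mean of the DMSO libraries, for the 45 tested effector genes grouped by role down the page. Red symbols are RB-BC libraries, grey symbols are DMSO libraries, and an asterisk marks an edgeR adjusted p below 0.05. The red symbols of ISG20, OASL, IFIH1 and DHX58 sit farthest to the right of grey, and SAMD9L is the gene with an asterisk on the left.

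**Figure D2:**
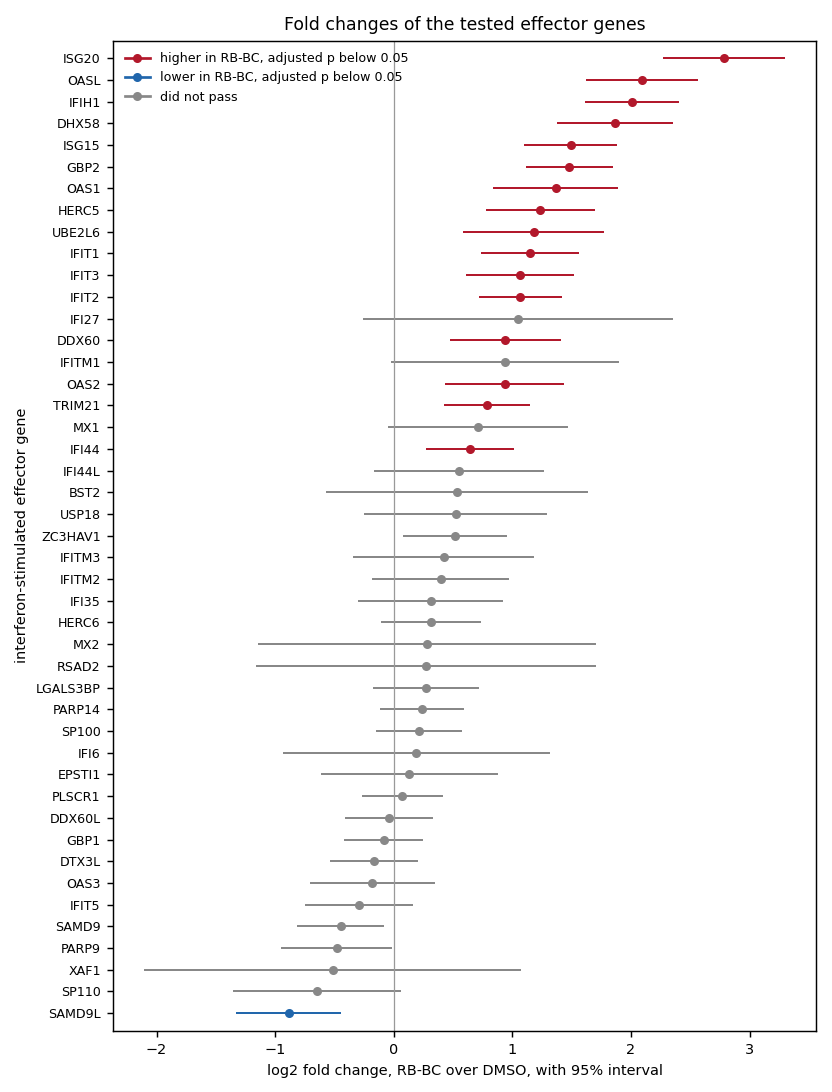
Points are edgeR log2 fold changes of RB-BC over DMSO, and lines are their 95% intervals, for the 45 tested effector genes ordered by size, with red for the 16 that rose, blue for SAMD9L, which fell, and grey for the 28 that did not pass. ISG20 is at the top with 2.78, and the wide grey intervals, such as those of MX2, RSAD2 and XAF1, belong to genes with few counts or uneven pairs.

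The promoters of these genes were read from RefSeq sequence (GRCh38.p14, 250 bases before to 50 bases after a gene's start), which was matched for 38 of the 46. Where a gene had more than 1 listed start, only the first was read, while the shares over all promoters count every start. The names without a match were IFIT2, IFITM2, OAS2, OASL, MX2, GBP2, USP18 and DHX58. The core letters of the ISRE were searched as GAAANNGAAA, which reads TTTCNNTTTC on the other strand. At least 1 core was present in 26 of the 38 promoters (68.4%), against 3.57% of 35116 promoters in the table. Among effector genes with a matched promoter, a core was found in 9 of 11 that rose, with none in the windows of OAS1 and UBE2L6, in 17 of 25 that did not pass, and not in that of SAMD9L. UBE2L6 had 2 listed starts, and the window of the second was not searched. The core was thus present in most promoters of either class, and these genes are known for ISREs, so the share describes the list and not the response. Of the 38 promoters, 16 held at least 2 cores and 4 held 3. The commonest version was GAAACTGAAA, with 12 matches in 11 genes, followed by GAAACCGAAA, with 9 matches in 9 genes. The GAS core TTCNNNGAA, which reads the same on both strands, was found in 10 of 38 promoters (26.3%, against 7.66% of all), and in IFITM1, BST2, IFI27 and EPSTI1 it overlapped an ISRE core. The NF-kB consensus was found in 5 of 38 (13.2%, against 5.91% of all). A match is a description of letters and not a measured binding site, and a window with no match says only that these letters are not in it.

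The IFIT proteins bind viral RNA and block its translation, and 3 of the 4 rose while IFIT5 did not. IFIT1 (ENSG00000185745), which recognises RNA caps that lack a host methyl mark, had 158 and 145 CPM in RB-BC 1 and RB-BC 2, against 75.5 and 61.0 CPM in DMSO 1 and DMSO 2. Its log2 fold change was 1.15 ± 0.17 (edgeR adjusted p = 0.0133), with no overlap between the groups. IFIT2 (ENSG00000119922), which binds AU-rich RNA and has been linked to cell death, had 261 and 246 CPM in RB-BC and 119 and 124 CPM in DMSO. It rose by a log2 fold change of 1.06 ± 0.14 (edgeR adjusted p = 0.0113), and the libraries of each pair were close to each other and far from the other pair. IFIT3 (ENSG00000119917), the partner that stabilises IFIT1 on RNA, had 331 and 290 CPM in RB-BC and 129 and 168 CPM in DMSO, again without overlap, for a log2 fold change of 1.06 ± 0.18 (edgeR adjusted p = 0.0194). IFIT5 (ENSG00000152778), a binder of RNA with a free phosphate end, had 24.3 and 22.4 CPM in RB-BC against 32.4 and 24.9 CPM in DMSO, and its log2 fold change of -0.29 ± 0.18 did not pass (edgeR adjusted p = 0.297). With RB-BC 1 left out, IFIT1, IFIT2 and IFIT3 did not pass, with edgeR adjusted p-values of 0.095, 0.0993 and 0.135 at log2 fold changes of 1.09, 1.02 and 0.97. With RB-BC 2 left out, IFIT2 and IFIT3 did not pass, with edgeR adjusted p-values of 0.0588 and 0.0653 at 1.11 and 1.16.

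The IFIT genes stand side by side on chromosome 10, with no protein-coding gene between IFIT1 and IFIT5 in RefSeq. The stretches of 3 of their promoters around the ISRE cores are shown because these neighbours differed in response although each holds cores; capitals mark the core on either strand, and sequences run 5′ to 3′ along the gene.
IFIT1, which rose, chr10:89392487-89392549, plus strand: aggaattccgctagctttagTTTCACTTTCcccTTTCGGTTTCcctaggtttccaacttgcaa
IFIT3, which rose, chr10:89327821-89327904, plus strand: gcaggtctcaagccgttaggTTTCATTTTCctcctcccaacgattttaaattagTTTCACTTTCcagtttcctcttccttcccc
IFIT5, which did not pass, chr10:89414503-89414593, plus strand: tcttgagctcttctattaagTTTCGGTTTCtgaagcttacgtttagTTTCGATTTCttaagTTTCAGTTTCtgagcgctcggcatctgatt
IFIT1 and IFIT3 hold 2 cores each, at 116 and 103 bases and at 156 and 122 bases before the start. IFIT5 holds 3, the first at 45 bases before the start, so the gene that did not pass had the most cores of the 3.

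The OAS enzymes make short oligoadenylates when they bind double-stranded RNA, which switch on the ribonuclease RNase L. OASL (ENSG00000135114), a relative without that activity that is known to bind and promote the sensor RIG-I, had 106 and 96.4 CPM in RB-BC against 20.3 and 27.2 CPM in DMSO. This was the second largest rise among the effector genes, with a log2 fold change of 2.09 ± 0.19 (edgeR adjusted p = 0.00675). OAS1 (ENSG00000089127) had 10.1 and 9.40 CPM in RB-BC and 4.12 and 3.43 CPM in DMSO, a log2 fold change of 1.36 ± 0.21 (edgeR adjusted p = 0.0156). OAS2 (ENSG00000111335) had 40.1 and 36.1 CPM in RB-BC and 16.7 and 23.2 CPM in DMSO, a log2 fold change of 0.94 ± 0.20 (edgeR adjusted p = 0.0325). Neither OAS1 nor OAS2 overlapped between the groups, and RB-BC lay above DMSO in the same way in 33.1% of all tested genes. OAS3, the form known to do most to activate RNase L in human cells, had 49.1 and 49.1 CPM in RB-BC, inside the span of 44.5 and 66.7 CPM in DMSO, and did not pass (log2 fold change -0.18 ± 0.21, edgeR adjusted p = 0.582). Without RB-BC 1 the edgeR adjusted p was 0.108 for OAS1 and 0.182 for OAS2, with log2 fold changes of 1.32 and 0.86, and without RB-BC 2 it was 0.0643 and 0.0924, with 1.41 and 1.01. OASL passed under each of these.

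OAS1, OAS3 and OAS2 lie next to each other on chromosome 12. The promoter of OAS3 is shown because it holds an ISRE core, of the commonest version, at 143 bases before the start and a second core near the start, while no core was found in the window of OAS1.
OAS3, which did not pass, chr12:112938311-112938491, plus strand: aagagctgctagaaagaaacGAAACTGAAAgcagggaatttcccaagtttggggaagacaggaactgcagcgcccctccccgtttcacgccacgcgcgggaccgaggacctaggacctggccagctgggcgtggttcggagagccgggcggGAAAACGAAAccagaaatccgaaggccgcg

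ISG15 is a small ubiquitin-like protein that is joined to new and viral proteins by the conjugating enzyme UBE2L6 and the ligase HERC5, and all 3 rose. ISG15 (ENSG00000187608) had 151 and 126 CPM in RB-BC against 48.3 and 50.2 CPM in DMSO, a log2 fold change of 1.49 ± 0.16 (edgeR adjusted p = 0.00819). UBE2L6 (ENSG00000156587) had 146 and 128 CPM in RB-BC and 46.9 and 73.8 CPM in DMSO, a log2 fold change of 1.18 ± 0.24 (edgeR adjusted p = 0.028). HERC5 (ENSG00000138646) had 98.7 and 94.5 CPM in RB-BC and 47.2 and 34.7 CPM in DMSO, a log2 fold change of 1.24 ± 0.19 (edgeR adjusted p = 0.0148). For each of the 3 the lower RB-BC library was above the higher DMSO library, as in 33.1% of all tested genes. UBE2L6 had the more uneven DMSO pair. HERC6, the close relative that serves as the ISG15 ligase in mice, had a log2 fold change of 0.31 ± 0.17 and did not pass (edgeR adjusted p = 0.241). USP18, which takes ISG15 off proteins and also holds back the type I interferon receptor, had 121 and 110 counts in RB-BC and 56 and 74 in DMSO and did not pass either (log2 fold change 0.52 ± 0.31, edgeR adjusted p = 0.281). ISG15 passed without either RB-BC library. UBE2L6 had an edgeR adjusted p of 0.138 with RB-BC 1 left out and 0.0644 with RB-BC 2 left out, at log2 fold changes of 1.08 and 1.27, and HERC5 had 0.0874 without RB-BC 1, at 1.21.

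The promoter stretch of ISG15 is shown because its ISRE cores overlap in a single run of letters, here in capitals.
ISG15, which rose, chr1:1013364-1013419, plus strand: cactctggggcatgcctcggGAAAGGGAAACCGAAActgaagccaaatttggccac

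RNA helicases of the RIG-I family sense viral RNA in the cytoplasm, and both members on the list rose by more than 3-fold. IFIH1 (ENSG00000115267), which encodes the sensor of long double-stranded RNA also called MDA5, had 63.8 and 70.1 CPM in RB-BC against 15.4 and 17.9 CPM in DMSO, a log2 fold change of 2.01 ± 0.16 (edgeR adjusted p = 0.00525). DHX58 (ENSG00000108771), which encodes LGP2, a family member that lacks the signalling domain and assists MDA5, had 12.5 and 12.9 CPM in RB-BC and 3.29 and 3.67 CPM in DMSO, a log2 fold change of 1.87 ± 0.20 (edgeR adjusted p = 0.00824). In both genes the libraries of a pair were close together and far from the other pair. DDX60 (ENSG00000137628), a helicase described as an enhancer of RIG-I signalling, had 31.0 and 30.9 CPM in RB-BC and 18.5 and 13.8 CPM in DMSO, a log2 fold change of 0.94 ± 0.19 (edgeR adjusted p = 0.0273). Its neighbour DDX60L had 20.6 and 21.7 CPM in RB-BC and 22.3 and 21.2 CPM in DMSO, which overlapped (log2 fold change -0.04 ± 0.15, edgeR adjusted p = 0.869). ZC3HAV1, the zinc-finger antiviral protein that binds CpG-rich RNA, had 172 and 171 CPM in RB-BC and 104 and 136 CPM in DMSO, and did not pass at a log2 fold change of 0.52 ± 0.18 (edgeR adjusted p = 0.0962). Without DMSO 2 it passed, at 0.73 (edgeR adjusted p = 0.0163). The call on DDX60 was lost without RB-BC 1 (0.94, edgeR adjusted p = 0.149), without RB-BC 2 (0.95, edgeR adjusted p = 0.104) and with library totals in place of TMM (0.97, edgeR adjusted p = 0.0703).

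The promoters of DDX60 and DDX60L and that of IFIH1 are shown, the pair because they hold 2 cores each at similar distances from the start and share the core nearer to it, and IFIH1 for its overlapping cores upstream and another 21 bases before the start. All 3 genes are on the minus strand and are printed along the gene.
DDX60, which rose, chr4:168318776-168318860, minus strand: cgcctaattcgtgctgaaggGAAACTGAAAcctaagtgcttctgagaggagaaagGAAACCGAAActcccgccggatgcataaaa
DDX60L, which did not pass, chr4:168480513-168480592, minus strand: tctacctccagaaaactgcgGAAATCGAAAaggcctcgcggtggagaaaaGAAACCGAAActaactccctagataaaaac
IFIH1, which rose, chr2:162318676-162318863, minus strand: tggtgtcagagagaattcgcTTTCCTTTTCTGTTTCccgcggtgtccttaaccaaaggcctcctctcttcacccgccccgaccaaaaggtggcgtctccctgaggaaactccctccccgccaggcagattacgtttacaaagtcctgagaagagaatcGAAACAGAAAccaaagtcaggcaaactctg

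ISG20 (ENSG00000172183), an exonuclease that degrades viral RNA, had the largest rise of all effector genes. It had 53.9 and 40.4 CPM in RB-BC 1 and RB-BC 2, against 6.4 and 7.28 CPM in DMSO 1 and DMSO 2, a log2 fold change of 2.78 ± 0.21 or 6.89-fold (edgeR adjusted p = 0.00484). The lower RB-BC library was far above the higher DMSO library. The 2 other genes of nucleotide metabolism, RSAD2 and CMPK2, are neighbours on chromosome 2 that are often among the most strongly induced genes after interferon. RSAD2, which encodes viperin, a maker of chain-terminating nucleotides, had only 14 and 11 counts in RB-BC and 11 and 6 in DMSO (log2 fold change 0.27 ± 0.58, edgeR adjusted p = 0.771). CMPK2, a mitochondrial nucleotide kinase, had 0 counts in all 4 libraries. A count of 0 allows up to 3 counts per library, which is 0.0692 and 0.0684 CPM in RB-BC and 0.0797 and 0.0895 CPM in DMSO, a limit that covers counting error only.
The promoter stretch of ISG20 is printed because it holds a single core of the commonest version.
ISG20, which rose, chr15:88638927-88638976, plus strand: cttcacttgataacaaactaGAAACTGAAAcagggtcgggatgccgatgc

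Large GTPases of the guanylate-binding and MX families attack intracellular pathogens and viral capsids, and only GBP2 of the 4 listed passed. GBP2 (ENSG00000162645) had 59.2 and 53.4 CPM in RB-BC against 20.6 and 19.8 CPM in DMSO, a log2 fold change of 1.48 ± 0.15 (edgeR adjusted p = 0.00759), and passed without either RB-BC library. GBP1, which lies next to it on chromosome 1, had 51.7 and 53.4 CPM in RB-BC and 56.9 and 54.7 CPM in DMSO, and its 95% interval of -0.41 to 0.24 (log2) did not reach the estimate of GBP2. MX1, which blocks influenza and other viruses, had 9.70 and 10.3 CPM in RB-BC and 4.33 and 7.88 CPM in DMSO and did not pass (log2 fold change 0.71 ± 0.31, edgeR adjusted p = 0.158). MX2, known as a restriction factor of HIV, had 50 and 46 counts in RB-BC and 16 and 47 in DMSO, which overlapped.

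The membrane restriction factors IFITM1, IFITM2 and IFITM3, which stop enveloped viruses from fusing with the cell, and BST2, which tethers budding virus, had 0 calls among 4 with edgeR, DESeq2 and limma-voom, and 0 had an unadjusted edgeR p below 0.05, since all 4 of their 95% intervals included 0. Over all tested genes edgeR called 16.1%, so 0 of 4 is near that background. IFITM3 had the highest level per length of all effector genes, 212 CPM per kb in RB-BC and 159 in DMSO as group means. IFITM1 had 5.72 and 5.38 CPM in RB-BC and 1.81 and 4.0 CPM in DMSO (log2 fold change 0.94 ± 0.39, edgeR adjusted p = 0.147). IFITM2 had 69.5 and 66.1 CPM in RB-BC and 39.8 and 63.4 CPM in DMSO, and IFITM3 had 305 and 267 CPM in RB-BC and 146 and 282 CPM in DMSO. In the RB-BC pair each gene was even, whereas DMSO 2 was higher than DMSO 1 by 1.15, 0.67 and 0.95 on the log2 scale for IFITM1, IFITM2 and IFITM3, and by 0.86 for MX1. DMSO 2 is the library with 21.7% mitochondrial counts, and the part of that share in these differences was not tested. Without DMSO 2, IFITM1, IFITM2, IFITM3 and MX1 passed, at log2 fold changes of 1.62, 0.77, 0.97 and 1.2 (edgeR adjusted p = 0.016, 0.0163, 0.0134 and 0.0188). BST2 was near the limit of detection, with 29 and 24 counts in RB-BC and 18 and 12 in DMSO.

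SAMD9L (ENSG00000177409) was the 1 effector gene that fell. It and its neighbour SAMD9 are growth-limiting proteins that also restrict poxviruses. SAMD9L had 11.4 and 9.42 CPM in RB-BC against 19.97 and 18.6 CPM in DMSO, with no overlap, a log2 fold change of -0.89 ± 0.18 (edgeR adjusted p = 0.0277). SAMD9 had 38.2 and 43.3 CPM in RB-BC and 58.1 and 53.0 CPM in DMSO and did not pass (log2 fold change -0.45 ± 0.15, edgeR adjusted p = 0.0892), although it did without DMSO 2 (-0.51, edgeR adjusted p = 0.0491). The call on SAMD9L was lost without RB-BC 1 (-1.03, edgeR adjusted p = 0.127), without RB-BC 2 (-0.75, edgeR adjusted p = 0.174) and with library totals alone (-0.84, edgeR adjusted p = 0.0777).

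PARP9 and DTX3L, which form a ubiquitin ligase complex from a shared promoter region on chromosome 3, and the ADP-ribosyltransferase PARP14 did not pass, with log2 fold changes of -0.48 ± 0.19, -0.17 ± 0.15 and 0.24 ± 0.14. DESeq2 and limma-voom called 0 of these 3 as well. With 16.1% of all tested genes called by edgeR, 0 of 3 is near the background. The unadjusted edgeR p was below 0.05 for PARP9, whose 95% interval ran from -0.94 to -0.03. TRIM21 (ENSG00000132109), a cytosolic antibody receptor and ubiquitin ligase, rose, with 37.0 and 36.7 CPM in RB-BC against 20.6 and 22.2 CPM in DMSO. Its log2 fold change was 0.78 ± 0.14 (edgeR adjusted p = 0.0223), without overlap, but the edgeR adjusted p was 0.174 with RB-BC 1 left out and 0.125 with RB-BC 2 left out, at 0.78 and 0.79. SP100, a component of nuclear bodies, did not pass (log2 fold change 0.21 ± 0.14, edgeR adjusted p = 0.339). Its relative SP110 had 10.6 and 11.2 CPM in RB-BC and 12.3 and 21.8 CPM in DMSO, did not pass at -0.64 ± 0.29 (edgeR adjusted p = 0.168), and was called lower once DMSO 1 was left out (-1.0, edgeR adjusted p = 0.0173).

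Among the genes named for interferon induction, IFI44 (ENSG00000137965) rose and IFI6, IFI27, IFI35 and IFI44L did not pass. IFI44, a protein with an antiproliferative effect in culture, had 67.7 and 66.9 CPM in RB-BC against 46.8 and 39.5 CPM in DMSO, a log2 fold change of 0.64 ± 0.15 and the weakest call of the 16 (edgeR adjusted p = 0.0387). That call was lost without RB-BC 1 (edgeR adjusted p = 0.257, at 0.64), without RB-BC 2 (edgeR adjusted p = 0.209, at 0.65) and with library totals alone (edgeR adjusted p = 0.11, at 0.68). IFI6, an inhibitor of apoptosis at mitochondria, had 5.46 and 3.76 CPM in RB-BC and 2.31 and 5.79 CPM in DMSO, so that the DMSO libraries enclosed both RB-BC libraries. IFI27 had only 18 and 33 counts in RB-BC and 11 and 9 in DMSO (log2 fold change 1.05 ± 0.53, edgeR adjusted p = 0.214).

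The remaining effectors, XAF1, EPSTI1, LGALS3BP and PLSCR1, did not pass with edgeR, DESeq2 or limma-voom, and all 4 of their 95% intervals included 0. XAF1, an antagonist of the apoptosis inhibitor XIAP, split the RB-BC pair, with 2.70 CPM in RB-BC 1 and 0.639 in RB-BC 2, against 1.91 in DMSO 1 and 2.86 in DMSO 2. LGALS3BP, a secreted glycoprotein, had 348 and 351 CPM in RB-BC and 250 and 331 CPM in DMSO, and passed only without DMSO 2 (log2 fold change 0.48, edgeR adjusted p = 0.0376). PLSCR1, a phospholipid scramblase that blocks virus entry, had a log2 fold change of 0.07 ± 0.14.

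The 28 genes that did not pass ranged in log2 fold change from -0.64 for SP110 to 1.05 for IFI27, with 19 estimates above 0 and 9 below. For 17 of them the upper bound of the 95% interval was below 1, a doubling, and for the others a doubling was within the interval. Of the 45 tested genes, 6 had a mean under 100 counts in both groups. Per kilobase of exon (GENCODE release 29, which need not be the authors' annotation), the highest group means in RB-BC after IFITM3 were ISG15 (147 CPM per kb, against 52.4 in DMSO), IFIT3 (118 against 56.2), LGALS3BP (97.6 against 81.1), UBE2L6 (62.2 against 27.5) and IFIT2 (61.8 against 29.5). The abundant end of the list thus held both genes that rose and genes that did not pass.

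Related and neighbouring genes were compared as ratios of counts within a library, which do not depend on how libraries are scaled. The ratio of IFIT1 to IFIT5 was 6.50 and 6.47 in RB-BC against 2.33 and 2.45 in DMSO, and that of IFIT3 to IFIT5 was 13.6 and 12.9 against 3.99 and 6.73. OAS2 to OAS3 was 0.816 and 0.735 in RB-BC and 0.374 and 0.347 in DMSO, and GBP2 to GBP1 was 1.14 and 1.00 in RB-BC and 0.362 and 0.361 in DMSO. DDX60 to DDX60L was 1.51 and 1.42 in RB-BC and 0.827 and 0.650 in DMSO. In each of these pairs the groups stood apart, but a gene that rose is set over a relative that did not pass. The separation thus restates those calls and adds no support. For the levels of single genes, RB-BC lay above DMSO in 33.1% of all tested genes and below in 32.1%. No such background was computed for ratios. HERC5 to HERC6 was 4.10 and 3.58 in RB-BC and 2.57 and 1.56 in DMSO, and the ratio of the sensors IFIH1 to RIGI, which lie on different chromosomes, was 0.683 and 0.80 in RB-BC and 0.251 and 0.407 in DMSO. The ratio of IFI44 to IFI44L overlapped, with 23.5 and 25.1 in RB-BC and 21.5 and 24.5 in DMSO, and so did that of MX1 to MX2. SAMD9L to SAMD9 was lower, with 0.298 and 0.218 in RB-BC and 0.344 and 0.350 in DMSO. These ratios are descriptions without a test. The sources used here do not say how reads shared by such relatives were counted, or whether strand was used, so counts of the IFIT, IFITM, OAS, GBP, SAMD9, DDX60 and IFI44 relatives are uncertain to that extent.

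**Figure D3:**
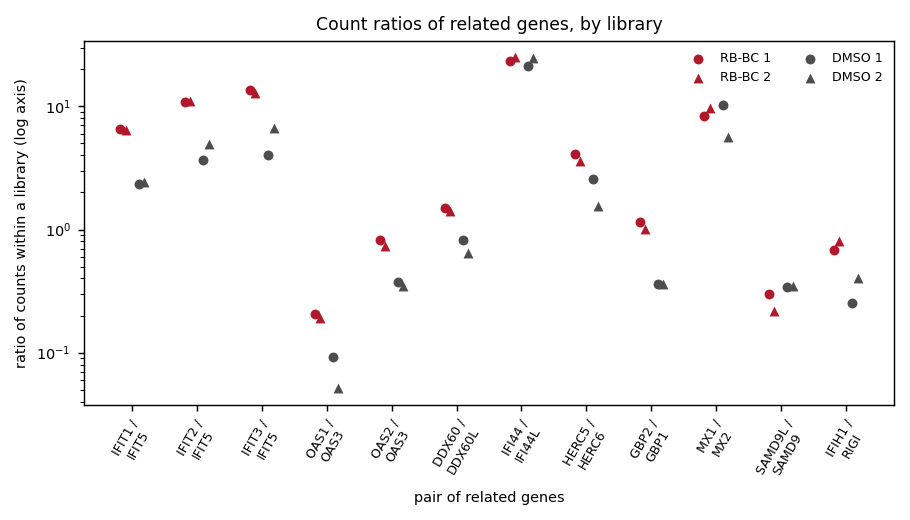
Each symbol is the ratio of the raw counts of the genes named on the horizontal axis within 1 library, on a log axis, with RB-BC libraries in red left of DMSO libraries in grey. The groups stand apart for every pair drawn except IFI44 to IFI44L and MX1 to MX2, and SAMD9L to SAMD9 is the pair in which RB-BC is lower. Most pairs set a gene that rose over a relative that did not pass, and no background for ratios was computed.

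ISG20, OASL, IFIH1, DHX58, ISG15 and GBP2 passed in every setting tried, including each of the 4 fits with 1 library left out. The number of effector genes that rose was 6 with RB-BC 1 left out and 8 with RB-BC 2 left out, and it was 16 with DMSO 1 and 22 with DMSO 2 left out. In such a fit the lone library of a group is assumed to vary like the other group, and over all genes the share called was 1.47% and 3.23% without RB-BC 1 and RB-BC 2, against 23.1% and 26.0% without DMSO 1 and DMSO 2. No effector gene that passed with all 4 libraries changed sign in any setting. The groups overlapped for none of these 17, so leaving out 1 library could hardly change a sign, and this adds no support.

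**Figure D4:**
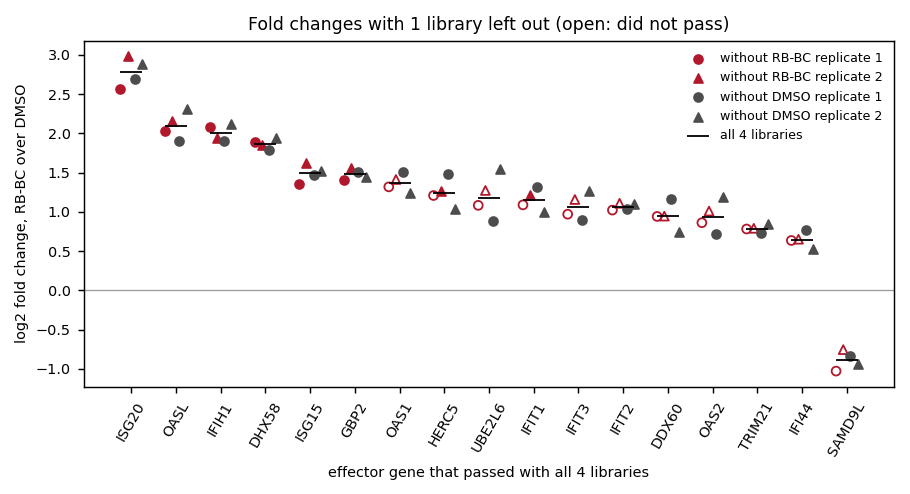
The vertical axis gives the log2 fold change of RB-BC over DMSO for the 17 effector genes that passed with all 4 libraries, with a black line for that fit and 1 symbol for each fit that leaves out 1 library; open symbols did not pass. Every symbol keeps its gene's side of 0, which groups without overlap nearly fix in advance. From OAS1 to the right of the axis open symbols appear where an RB-BC library is left out.

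The rest of the interferon pathway was read from the same fit, by 6 lists of 103 genes in all, of which 79 could be tested, with 13 that rose and 3 that fell, against backgrounds of 8.58% and 7.53% of all tested genes, and a median log2 fold change of 0.27. Of 21 interferon genes, 20 had no count in any library, including IFNB1 and the interferon alpha genes. The exception was IFNL1, a type III interferon, with 23 and 23 counts in RB-BC and 0 and 0 in DMSO. Against a floor of 3 counts per DMSO library it was at least 6.24-fold higher, and it passed the test (edgeR adjusted p = 0.0209), which it entered only through its RB-BC counts. The call was lost with RB-BC 1 left out (edgeR adjusted p = 0.112) and with RB-BC 2 left out (edgeR adjusted p = 0.0772).

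Among 12 receptor, JAK and STAT genes 1 rose, a share near the background of 8.58%, and that was IFNGR2, the signalling chain of the interferon gamma receptor. It had 105 and 105 CPM in RB-BC against 37.3 and 41.3 CPM in DMSO, a log2 fold change of 1.42 ± 0.14 (edgeR adjusted p = 0.00759). STAT2 and IRF9, which act together at the ISRE and are named after their values were seen, did not pass. STAT2 had 52.7 and 59.4 CPM in RB-BC and 40.7 and 33.7 CPM in DMSO (log2 fold change 0.59 ± 0.16, edgeR adjusted p = 0.0584). It was called once DMSO 1 was left out (0.74, edgeR adjusted p = 0.0265) and by DESeq2 (0.59, DESeq2 adjusted p = 0.022). IRF9 had 255 and 46 counts in RB-BC and 82 and 125 counts in DMSO, with the RB-BC pair outside the DMSO pair on both sides.

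Of the other interferon regulatory factors, 5 of 8 could be tested and 2 rose, against a background of 8.58% of all tested genes. IRF2, which can repress or activate through the ISRE, had 54.6 and 52.8 CPM in RB-BC against 28.5 and 29.4 CPM in DMSO (log2 fold change 0.89 ± 0.14, edgeR adjusted p = 0.0154). IRF5, a factor activated downstream of sensors, had 173 and 185 counts in RB-BC and 58 and 61 in DMSO (1.29 ± 0.26, edgeR adjusted p = 0.0275). The others, named after their values were seen, were IRF1 at 0.12 ± 0.14, IRF3 at -0.06 ± 0.15 and IRF7, the amplifier of interferon production, at 0.65 ± 0.22, and none of these passed. Without RB-BC 1 or RB-BC 2 the edgeR adjusted p was 0.132 and 0.0907 for IRF2, at 0.87 and 0.91, and 0.172 and 0.161 for IRF5, at 1.33 and 1.25. Without DMSO 2, IRF7 passed at 0.91 (edgeR adjusted p = 0.0295).

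Of 14 sensors and adaptors 13 were tested and 3 rose, against a background of 8.58% of all tested genes. MAVS, the mitochondrial adaptor through which RIG-I and MDA5 signal, had 451 and 428 CPM in RB-BC against 166 and 201 CPM in DMSO (log2 fold change 1.26 ± 0.16, edgeR adjusted p = 0.0112). IKBKE, a kinase that phosphorylates IRF3 and IRF7, had 54.9 and 42.1 CPM in RB-BC and 21.1 and 22.3 CPM in DMSO (1.16 ± 0.18, edgeR adjusted p = 0.0156). RIGI had 93.4 and 87.6 CPM in RB-BC and 61.1 and 44.0 CPM in DMSO (0.78 ± 0.19, edgeR adjusted p = 0.0439). For none of the 3 did the groups overlap, but RB-BC lay above DMSO in 33.1% of all tested genes. In genes picked by their test this adds no support. Without RB-BC 1 the edgeR adjusted p was 0.0803 for MAVS, 0.112 for IKBKE and 0.237 for RIGI, at 1.23, 0.96 and 0.74, and without RB-BC 2 it was 0.149 for RIGI, at 0.83. With library totals alone RIGI had an edgeR adjusted p of 0.107, at 0.81.

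Of 10 brakes on the pathway 1 fell and 1 rose, shares near the backgrounds of 7.53% and 8.58%. SOCS3, an inhibitor of JAK kinases, had 25.5 and 22.5 CPM in RB-BC against 56.2 and 63.0 CPM in DMSO (log2 fold change -1.31 ± 0.15, edgeR adjusted p = 0.00942). IRF2BP2, a corepressor that binds IRF2, had 119 and 114 CPM in RB-BC and 74.7 and 75.2 CPM in DMSO (0.63 ± 0.13, edgeR adjusted p = 0.031). SOCS3 had an edgeR adjusted p of 0.0602 with RB-BC 1 left out and 0.0552 with RB-BC 2 left out, at -1.40 and -1.22, and IRF2BP2 had 0.268 and 0.189, at 0.60 and 0.66. With library totals alone IRF2BP2 did not pass either (0.68, edgeR adjusted p = 0.069).

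Among 38 further interferon-stimulated genes 5 rose and 2 fell, against backgrounds of 8.58% and 7.53% of all tested genes. Their median log2 fold change was 0.28. SLFN5, of the Schlafen family of growth and virus restriction genes, had 90.0 and 101 CPM in RB-BC against 23.6 and 23.0 CPM in DMSO (2.03 ± 0.15, edgeR adjusted p = 0.00452). APOL1, an apolipoprotein known as a trypanosome-killing factor of serum, had 12.3 and 16.7 CPM in RB-BC and 3.32 and 3.70 CPM in DMSO (2.05 ± 0.23, edgeR adjusted p = 0.00923). GBP4, of the same chromosomal cluster as GBP2, had 13.2 and 11.6 CPM in RB-BC and 3.85 and 3.79 CPM in DMSO (1.69 ± 0.20, edgeR adjusted p = 0.00939). APOL6 had 63.8 and 73.6 CPM in RB-BC and 31.5 and 34.2 CPM in DMSO (1.07 ± 0.15, edgeR adjusted p = 0.0129). The groups did not overlap for any of the 4, which were picked by their test, and RB-BC lay above DMSO in 33.1% of all tested genes. GBP5, TRIM14 and PNPT1 are named after their values were seen. GBP5 rose with 70 and 80 counts in RB-BC and 2 and 14 in DMSO (edgeR adjusted p = 0.048), but it entered the test only through its RB-BC counts. TRIM14 fell (-0.94 ± 0.21, edgeR adjusted p = 0.0355), and so did PNPT1 (-0.74 ± 0.16, edgeR adjusted p = 0.034). ADAR, the editor of double-stranded RNA, at -0.38 ± 0.17, and EIF2AK2, the kinase PKR that halts translation, at -0.11 ± 0.15, also named after their values were seen, did not pass. Without RB-BC 1 the edgeR adjusted p was 0.0605 for GBP4, 0.0713 for APOL6, 0.162 for GBP5, 0.205 for TRIM14 and 0.232 for PNPT1, at log2 fold changes of 1.60, 1.17, 2.97, -0.89 and -0.73. Without RB-BC 2 it was 0.0808 for APOL6, 0.14 for GBP5, 0.129 for TRIM14 and 0.185 for PNPT1, at 0.96, 2.79, -0.98 and -0.74, and PNPT1 had 0.12 with library totals alone, at -0.70.

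**Figure D5:**
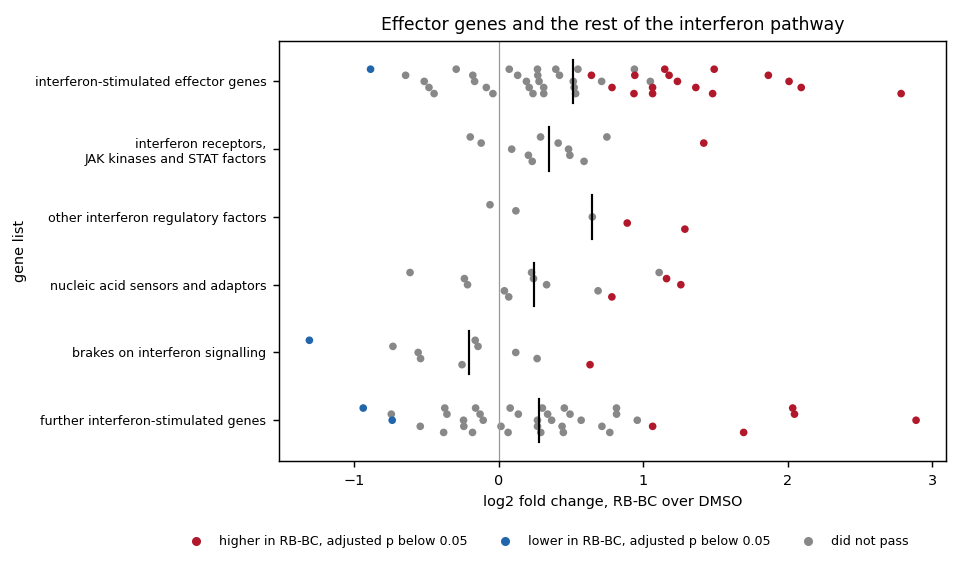
Each point is the edgeR log2 fold change of RB-BC over DMSO of 1 tested gene, by list, with the list's median as a black line, red for genes that rose, blue for genes that fell and grey for genes that did not pass. The effector genes in the top row have a median of 0.52, the brakes on signalling are the list with a median below 0, and the interferon genes are not drawn because only IFNL1 was tested.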

How the data were processed

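RNA from 4 libraries of MDA-MB-231 cells was measured, 2 with RB-BC and 2 with DMSO. The authors deposited raw counts of reads, as whole numbers for each Ensembl gene and library, and the values show no normalization. Library preparation used an mRNA kit, per the labels' protocols. Aligner, counter, strand setting and annotation: the sources used here do not give them. The submitters' processing notes name mouse genome builds, whereas all 20263 identifiers are human, so coordinates come only from RefSeq promoters (GRCh38.p14). Symbols came from a table of gene names for 20148 identifiers and from GENCODE release 29 for 76, and 39 had none. Groups and replicate numbers were read from the sample titles.

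The counts were analysed in R 4.3.3 with edgeR 4.0.16: filterByExpr (minimum count 10, minimum total 15), TMM, and a two-sided quasi-likelihood test with Benjamini-Hochberg adjustment over 13744 genes, at a threshold of 0.05. The SE is the log2 fold change over the square root of F, and intervals are at 95%. Only the model fitted across all genes tested single genes, since with 2 libraries per group the smallest two-sided p of an exact permutation test is 0.333. The code was tested on simulated data. Alternatives were library totals alone, RLE size factors, a minimum mean of 50 counts, no low-count filter, mitochondrially encoded genes removed, the replicate number as a block, DESeq2 1.42.0, limma-voom (limma 3.58.1) and leaving out each library. Named were all effector genes and, in each pathway list, up to 4 genes past the threshold with the smallest adjusted p; others are marked as named after their values were seen. The effector genes and the lists were chosen with earlier results of these data known. Some genes of the pathway lists are not reported here by name.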

Additional observations from a re-analysis of the deposited data

How the results depend on the processing

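Of the alternatives, RLE size factors, a minimum mean of 50 counts, no low-count filter, removal of mitochondrially encoded genes, DESeq2 and limma-voom left the calls of the effector genes as they were, at 16 that rose and 1 that fell. With library totals alone 14 rose and 0 fell. Leaving out 1 library, the number that rose ranged from 6 to 22 and the number that fell from 0 to 2, and in the pathway lists, with 13 and 3 in all 4 libraries, from 3 to 22 and from 0 to 6. The share of all genes called also moved with the library left out, as given above. DESeq2 called 18 and 4 pathway genes. Over all tested genes DESeq2 called 11.9% higher and 23.4% in either direction, against 8.58% and 16.1% with edgeR. Same-numbered libraries did not deviate together (correlation of deviations from the group means -0.07), so the numbers were not taken as pairs. With 2 libraries per group this is a single value, identical for both numbers by construction. With the replicate block 15 effector genes rose and 1 fell, IFI44 being lost (edgeR adjusted p = 0.0505), and 14 pathway genes rose and 3 fell. IRF2BP2 was lost there too (edgeR adjusted p = 0.0587), and HELZ2 and ZNFX1, named after their values were seen, were gained (0.0368 and 0.0449, edgeR adjusted p). Among the effector genes and the named pathway genes, changes of sign were found only in those that had not passed. For effector genes that passed, the groups did not overlap, so a change of sign with 1 library left out was hardly possible. With 1 library left out, the log2 fold change ranged from -0.44 to 0.14 for OAS3 (above 0 without DMSO 2), from -0.35 to 1.37 for MX2 (below 0 without DMSO 1), from -0.078 to 0.00076 for DDX60L (above 0 without RB-BC 1) and from -0.027 to 0.67 for RSAD2 (below 0 without DMSO 2). It ranged from -0.33 to 0.996 for IFI6 (-0.33 without DMSO 1 and -0.098 without RB-BC 1), from -1.89 to 0.18 for XAF1 (above 0 without RB-BC 2), from -0.038 to 0.32 for EPSTI1 (below 0 without DMSO 1) and from -0.12 to 0.0040 for IRF3 (above 0 without RB-BC 2). IRF9 ranged from -1.48 to 0.996, with -1.48 without RB-BC 1 and -0.11 without DMSO 1, and was at -0.14 with the replicate block and -0.19 with limma-voom, and DDX60L was at 0.0061 with library totals alone. The causes were not tested. CMPK2 had no count, and BST2, RSAD2, IFI27 and MX2 had at most 50 counts in any library and intervals that include a doubling.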

Other observations

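IRF9 and XAF1, singled out after their values were seen, both split the RB-BC pair, with RB-BC 2 the lowest of the 4 libraries for each. IRF9 had 5.88 CPM in RB-BC 1 and 1.05 in RB-BC 2, against 2.18 in DMSO 1 and 3.73 in DMSO 2. XAF1 had 2.70 CPM in RB-BC 1 and 0.639 in RB-BC 2, against 1.91 in DMSO 1 and 2.86 in DMSO 2. RB-BC 1 was thus the highest library for IRF9, and DMSO 2 for XAF1. Over all tested effector genes the median log2 difference of RB-BC 2 over RB-BC 1 was -0.08, with 0.5 CPM added to each value. For XAF1 it was -2.08 without that addition, so the 2 values are on different scales.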
